A study of Mus musculus with 6 samples.

Results

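The genes described here are the axon guidance ligands and receptors of mouse cardiac fibroblasts. They were taken by gene symbol from the deposited table and comprise the class 3 to class 7 semaphorins, plexins, neuropilins, Slits, Robos, netrins with DCC, neogenin and the UNC5 receptors, and ephrins with Eph receptors. The rule found 70 of the 22063 genes in the table, 35 ligands and 35 receptors. No measured value is part of the rule, but the rule was chosen with earlier results of these data known. 6 libraries were compared, all from primary fibroblasts of hearts of mice with floxed *Tet3* alleles and all treated with TGF-β. The 3 GFP libraries, given by the labels as the control genotype, received an adenovirus coding for GFP, and the 3 CRE libraries, given as the *Tet3* knockout, received an adenovirus coding for Cre recombinase. By the study's figure legend, TGF-β treatment followed the virus. The comparison asked which genes differed between TGF-β-treated fibroblasts with and without prior deletion of *Tet3*, which codes for a dioxygenase that oxidises 5-methylcytosine. The age of the mice is not given in the sources used here, and no fibroblasts without TGF-β were analysed here. The control virus carried no recombinase, and by the study's reagent list both viruses carried EGFP. The sources do not say whether libraries of a group came from separate mice or cultures, so that p-values measure the spread between these samples, which may be technical.

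Guidance cues were first described as signals that attract or repel growing axons, and the same ligands and receptors steer migrating cells and growing vessels in the heart and elsewhere. Semaphorins signal through plexins, with neuropilins as co-receptors for most secreted class 3 members. Slits bind Robo receptors, netrins bind DCC, neogenin and UNC5 receptors, and membrane-bound ephrins bind Eph receptor tyrosine kinases on neighbouring cells, where signalling can run in both directions.

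Libraries held 17002126 to 20343590 counts over genes, and a count of 3 corresponded to 0.156 to 0.186 CPM (counts scaled to the size of the library). *Tet3* itself was counted at 1044, 965 and 1000 reads in GFP and 642, 649 and 637 reads in CRE, 60.8% of the GFP mean in CPM, so transcripts of the gene remained in the CRE libraries. Of 12 fibroblast markers, 10 fell and none rose, and their summed level went from 54957 to 56635 CPM in GFP to 29367 to 31682 CPM in CRE. The 15 endothelial markers summed to 1152 to 1214 CPM in GFP and 1017 to 1067 CPM in CRE, of which *Eng*, called higher, held 644.0 and 798.6 CPM, and the other 14 went from 515 to 573 CPM to 238 to 273 CPM. The 10 mural markers summed to 1042 to 1184 CPM in GFP and 873 to 890 CPM in CRE, and without *Pdgfrb* to 120 to 129 CPM and 94.0 to 109 CPM. Of 9 neuronal markers, *Tubb3* was called higher at 30.6 and 45.1 CPM, the other 8 summed to 0.113 to 0.364 CPM in GFP and 0.376 to 1.05 CPM in CRE, and *Snap25*, *Th* and *Dbh* were at 0 in every library. Schwann cell markers summed to 16.4 to 20.1 CPM in GFP and 15.8 to 18.0 CPM in CRE. Macrophage markers reached at most 36.2 CPM and cardiomyocyte markers at most 2.69 CPM.

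Of the 70 guidance genes, 56 had enough reads to be tested, and 37 of these differed between CRE and GFP (quasi-likelihood test of edgeR, threshold 0.05 on the adjusted p). This was 66.1% of the tested guidance genes, against 51.2% of all 12862 genes tested. Higher in CRE were 13 (23.2%, against 25.5% of all tested genes) and lower were 24 (42.9%, against 25.7%). A change of more than 1.5-fold was called in 24 guidance genes, 9 higher and 15 lower, which is 42.9% against 17.3% of all tested genes, and 13 passed 2-fold. The ranges of the CPM values of GFP and CRE did not overlap in 38 guidance genes, 67.9% against 59.6% of all tested genes. The median log2 fold change of the 56 genes was -0.15, against 0.01 over all tested genes. Ligands gave 8 higher and 12 lower of 30 tested, and receptors 5 higher and 12 lower of 26 tested. The split of called guidance genes was 15 higher and 19 lower with library size alone as the scaling and 16 and 15 on FPKM values. Over all 12862 tested genes it was 5529 higher and 2083 lower with library size alone, and 4976 and 1916 on log2(FPKM + 1). All guidance genes together held 0.362% to 0.390% of the counts of a library. Scaling by library size alone moved the median of all tested genes up by 0.16, so some calls of small size depended on the scaling.

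**Figure D1:**
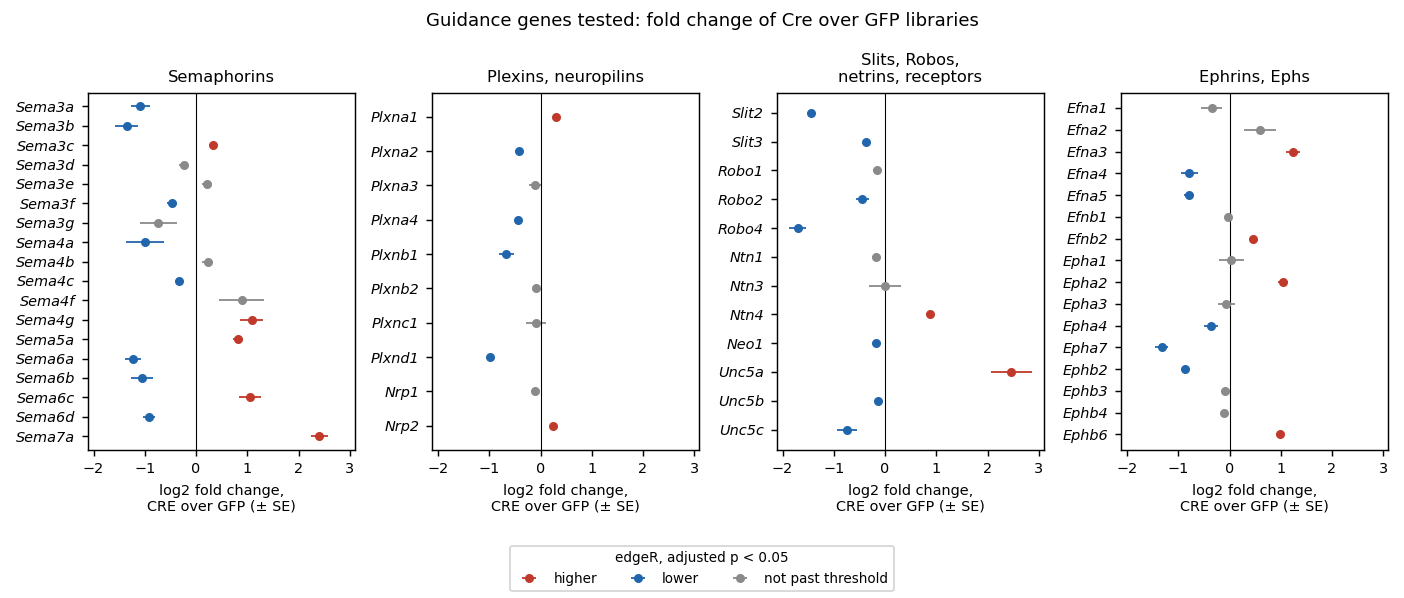
Log2 fold change of CRE over GFP with its standard error for the 56 guidance genes tested, in 4 groups of families (3 libraries per group). Red points are genes called higher, blue points genes called lower and grey points genes that did not pass an adjusted p of 0.05. *Sema7a* and *Unc5a* lie farthest to the right, at 2.40 and 2.46, and *Robo4* and *Slit2* farthest to the left, at -1.71 and -1.45.

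On the FPKM scale, which corrects for transcript length, *Slit2* was the most abundant guidance gene in GFP at 97.9 ± 3.44 (SD, n = 3), followed by the plexin gene *Plxnb2* at 91.1 ± 2.23 and by *Unc5b* at 77.8 ± 3.08. Their 3 libraries did not overlap with one another. *Neo1* followed at 44.2 ± 1.69 and *Slit3* at 35.5 ± 0.41. In CRE the order was *Plxnb2* at 96.0 ± 3.97, *Unc5b* at 79.3 ± 2.32 and *Neo1* at 46.3 ± 1.45, and *Slit2* followed at 40.8 ± 1.47, in a range shared with *Plxna1* at 38.5 ± 1.43. Further down, neighbours in the order were often within their spread, as for *Plxna1* and *Nrp2*, for *Nrp1* and *Plxnd1*, and for *Ephb4*, *Efnb2* and *Ntn4* in GFP. The cells thus carried transcripts for receptors of each system, with plexins summing to 155 ± 5.75 FPKM in GFP and 159 ± 5.30 FPKM in CRE.

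**Figure D2:**
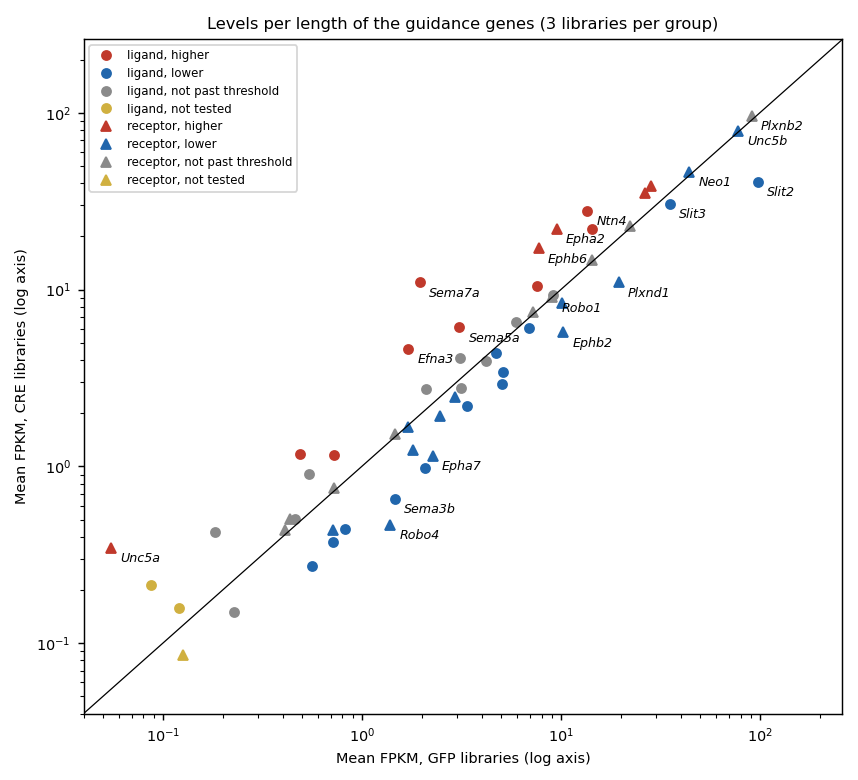
Mean FPKM of guidance genes in GFP (horizontal) against CRE (vertical), both on log axes, for genes with means above 0.05 in both groups. Circles are ligands, triangles receptors, colours give the call, and the line marks equal levels. *Slit2* lies at 97.9 against 40.8 and *Plxnb2* near the line at 91.1 against 96.0.

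The Slits, secreted ligands that repel axons and modulate migration of many cells, fell. *Slit2* (chr5:47983138-48307733, plus strand) was counted at 13479, 14077 and 14969 reads in GFP and 5707, 5149 and 5486 reads in CRE. Each CRE library thus lay far below each GFP library. The level dropped from 803.1 ± 31.3 to 293.8 ± 11.3 CPM (SD, n = 3), to 36.6% of the GFP mean, with a log2 fold change of -1.45 (SE 0.05, adjusted p = 4.69e-08). *Slit3* was counted at 3137, 3470 and 3826 reads in GFP and 2839, 2588 and 3015 in CRE, or 196.5 ± 2.02 and 151.7 ± 7.97 CPM, a smaller change of -0.37 (SE 0.05, adjusted p = 0.000123). The FPKM ratio of *Slit2* to *Slit3* was therefore 2.76 ± 0.125 in GFP and 1.33 ± 0.0691 in CRE, and summed FPKM of the family went from 133 ± 3.10 to 71.6 ± 2.45. *Slit1*, mostly a neural Slit, had 3, 2 and 3 reads in GFP and 9, 8 and 11 in CRE, too few to be tested.

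The 250 bases before the *Slit2* start in RefSeq (GRCm38.p6, chr5:47982905-47983154, plus strand) held 25 CpG dinucleotides. They are shown, with CpG in capitals, because *Slit2* had the largest change in reads of the family. A further reason is that CpG cytosines, only when methylated, are a substrate of the enzyme that was deleted. DNA methylation was not measured in these libraries.
Slit2: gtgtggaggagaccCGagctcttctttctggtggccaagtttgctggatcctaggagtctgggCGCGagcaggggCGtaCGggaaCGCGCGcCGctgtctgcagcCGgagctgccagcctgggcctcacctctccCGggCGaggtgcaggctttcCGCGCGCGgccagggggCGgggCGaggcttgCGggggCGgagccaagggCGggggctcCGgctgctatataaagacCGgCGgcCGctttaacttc

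*Robo1*, the main Slit receptor here at 9.05 FPKM in GFP and 9.08 FPKM in CRE, had 1095, 1321 and 1254 reads in GFP and 1053, 1185 and 1202 in CRE, and the difference of -0.16 (SE 0.07) missed the threshold (adjusted p = 0.0738). *Robo2* was low, at 96, 109 and 125 reads against 91, 87 and 76, with a log2 fold change of -0.44 (SE 0.13, adjusted p = 0.0188). This call was lost without GFP replicate 3 (adjusted p = 0.0692) or CRE replicate 3 (adjusted p = 0.0721), and with library size alone as the scaling (adjusted p = 0.0975), and on deposited FPKM values the difference was -0.02. *Robo4*, the Robo of blood vessels, fell from 102, 89 and 105 reads to 30, 33 and 32, a drop to 30.5% of the GFP mean (-1.71, SE 0.17, adjusted p = 2.54e-05). Beside it, 12 of 15 endothelial markers fell and 1 rose, with a median log2 fold change of -1.15, *Pecam1* went from 73.4 to 39.6 CPM and *Cdh5* from 141.7 to 80.1 CPM, while *Kdr* and *Flt1* did not pass the threshold. In bulk samples fewer cells of a type and less RNA per cell cannot be told apart, and the part of endothelial cells in the *Robo4* result was not tested. With *Slit2* down and *Robo1* near its former level, the FPKM ratio of *Slit2* to *Robo1* was 10.9 ± 0.933 in GFP and 4.53 ± 0.567 in CRE.

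**Figure D3:**
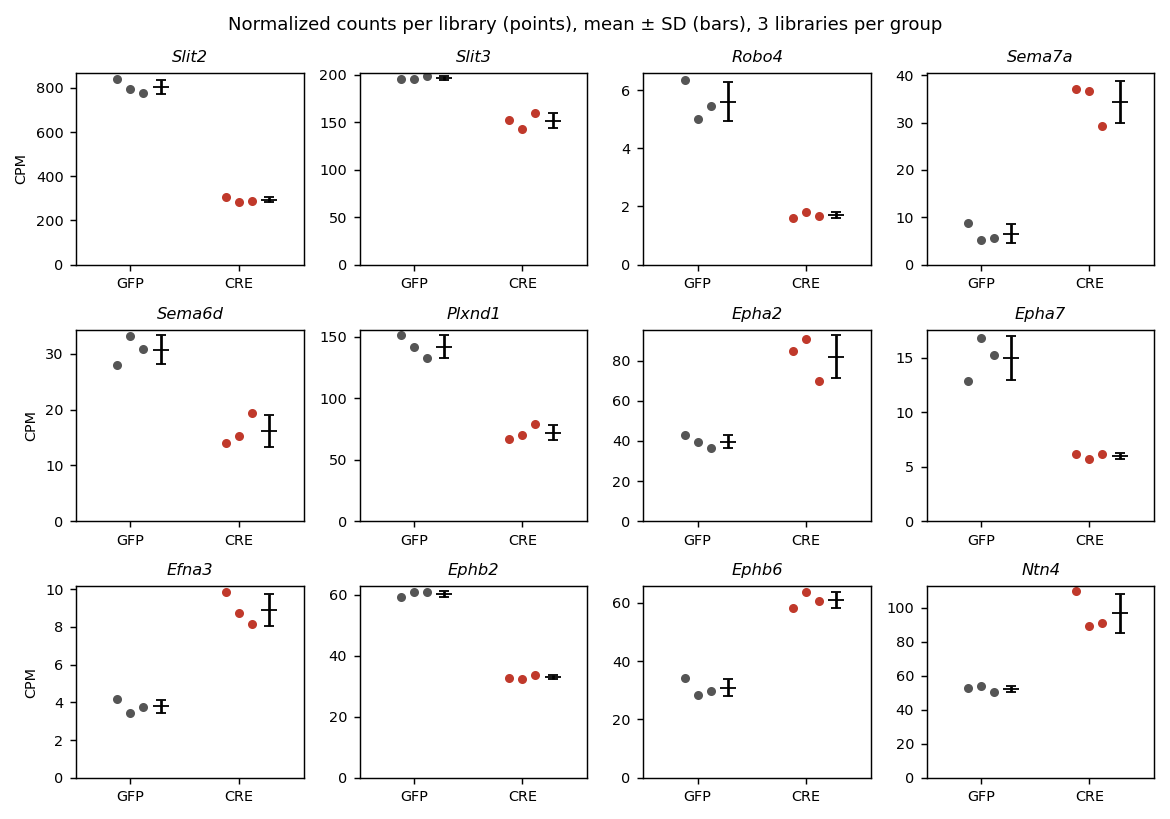
CPM in each of the 6 libraries (points) with the group mean and SD (bars) for 12 guidance genes, on linear axes that start at 0. GFP and CRE libraries do not overlap in any of the 12 panels, for example 778 to 838 CPM against 285 to 307 CPM for *Slit2*.

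Semaphorins changed in both directions, with 5 of 18 tested members higher and 8 lower. The largest rise was in *Sema7a* (chr9:57940112-57962865, plus strand), the membrane-anchored class 7 semaphorin that binds plexin C1 and β1 integrins. It had 142, 92 and 108 reads in GFP and 690, 661 and 554 in CRE. The lowest CRE library stood at 29.3 CPM and the highest GFP library at 8.83 CPM. Means were 6.54 ± 1.99 and 34.3 ± 4.39 CPM, a log2 fold change of 2.40 (SE 0.17, adjusted p = 2.57e-06). Per length, *Sema7a* rose to 11.0 FPKM in CRE, about the level of *Sema3c*, the FPKM ratio to which went from 0.272 ± 0.116 to 1.04 ± 0.110.

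The 250 bases before the *Sema7a* start (RefSeq, GRCm38.p6, chr9:57939862-57940111, plus strand) held 17 CpG, again in capitals. They are shown beside those of *Slit2* as the semaphorin with the largest change.
Sema7a: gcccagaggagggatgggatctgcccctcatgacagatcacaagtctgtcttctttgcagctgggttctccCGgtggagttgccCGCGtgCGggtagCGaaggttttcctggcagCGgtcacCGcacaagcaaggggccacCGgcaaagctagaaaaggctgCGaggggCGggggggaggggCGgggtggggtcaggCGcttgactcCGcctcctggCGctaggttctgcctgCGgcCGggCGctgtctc

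Among the secreted class 3 semaphorins, 3 of 7 fell and 1 rose. *Sema3a*, a classical repellent that acts through neuropilin-1 and A-type plexins, had 56, 68 and 67 reads in GFP and 36, 30 and 28 in CRE (-1.09, SE 0.19, adjusted p = 0.000914). *Sema3b* had 73, 86 and 72 reads against 38, 22 and 35 (-1.35, SE 0.22, adjusted p = 0.00059). Both were low in level, and neither overlapped between groups. *Sema3f*, a ligand of neuropilin-2, went from 222, 243 and 274 reads to 182, 200 and 173 (-0.48, SE 0.10, adjusted p = 0.00232), but on FPKM values the difference was -0.11 and did not pass (adjusted p = 0.578). *Sema3c*, which signals through neuropilins and plexin D1 and is needed in the developing outflow tract, had the highest FPKM of the semaphorins in GFP and rose slightly, from 42.4 ± 5.28 to 53.4 ± 1.04 CPM (0.33, SE 0.08, adjusted p = 0.00664). *Sema3d*, *Sema3e* and *Sema3g* did not pass, at -0.24, 0.22 and -0.73. Without 1 library this changed for *Sema3d* (adjusted p = 0.0112 without CRE replicate 1 and 0.0485 without GFP replicate 2) and for *Sema3e* (adjusted p = 0.0292 without GFP replicate 1), and *Sema3e* also passed with library size alone (0.38, adjusted p = 0.00638).

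The transmembrane class 6 semaphorins, ligands of A-type plexins, were all called, 3 lower and 1 higher. *Sema6d* went from 451, 589 and 594 reads in GFP to 260, 276 and 368 in CRE (-0.92, SE 0.12, adjusted p = 0.000101). *Sema6a* fell from 156, 190 and 194 reads to 62, 97 and 82 (-1.23, SE 0.16, adjusted p = 0.000114), and *Sema6b* from 41, 51 and 57 to 22, 29 and 24 (-1.05, SE 0.22, adjusted p = 0.00241). *Sema6c* moved the other way, from 34, 24 and 32 reads to 67, 55 and 75 (1.05, SE 0.22, adjusted p = 0.00259). Summed FPKM of the class was 8.68 ± 0.543 in GFP and 5.51 ± 0.765 in CRE. *Sema5a*, a semaphorin with thrombospondin repeats, rose from 507, 692 and 686 reads to 990, 1242 and 1247 (0.82, SE 0.10, adjusted p = 9.74e-05). Of class 4, *Sema4g* rose from 34, 37 and 53 reads to 69, 91 and 115 (1.08, SE 0.22, adjusted p = 0.00218) and *Sema4c*, a plexin-B2 ligand, fell by 0.33 (SE 0.06, adjusted p = 0.00172), a call not made on FPKM values (adjusted p = 0.0831). *Sema4a* passed narrowly, at -0.99 (SE 0.37, adjusted p = 0.0467), with 11, 29 and 33 reads in GFP and 12, 13 and 13 in CRE. Its groups overlapped through GFP replicate 1, and with any of the other 5 libraries left out the adjusted p was 0.0949 to 0.178. With library size alone it was 0.0797, with DESeq2 0.0843 and with limma-voom 0.0898. *Sema4b* and *Sema4f* did not pass (adjusted p = 0.101 and 0.113), although *Sema4b* passed with library size alone (0.39, adjusted p = 0.0101) and *Sema4f* stood at 1.65 (adjusted p = 0.00784) without GFP replicate 2.

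Plexins, the signalling receptors for semaphorins, gave 1 higher and 4 lower of 8 tested. The strongest change was in *Plxnd1* (chr6:115954811-115995005, minus strand), a receptor for SEMA3E, SEMA3C and SEMA4A that is best known from developing vessels. It had 2432, 2514 and 2551 reads in GFP and 1241, 1269 and 1497 in CRE, a drop from 141.8 ± 9.34 to 72.0 ± 6.36 CPM (-0.98, SE 0.07, adjusted p = 2.9e-06). The CRE libraries lay between 66.7 and 79.0 CPM, all below the lowest GFP library at 132.5 CPM. The endothelial markers given beside *Robo4* fell too, and their part in this result was not tested. *Plxna1*, a shared signalling partner of class 3 and class 6 semaphorins, rose from 258.7 ± 16.8 to 317.4 ± 7.72 CPM (0.29, SE 0.05, adjusted p = 0.000984), and 10.7% of its exon bases lie under an antisense gene, *Gm26811*. *Plxna4* fell from 138.1 ± 13.9 to 101.8 ± 0.597 CPM (-0.44, SE 0.07, adjusted p = 0.00034). *Plxna2* fell by 0.42 (SE 0.08, adjusted p = 0.00135), which did not pass on FPKM values (adjusted p = 0.0880), and *Plxnb1* by 0.66 (SE 0.14, adjusted p = 0.00323). The FPKM ratio of *Plxna1* to *Plxnd1* went from 1.44 ± 0.0634 to 3.52 ± 0.385.

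Other semaphorin receptors moved little. *Plxnb2*, the most abundant plexin, had 10226, 11249 and 11695 reads in GFP and 10551, 11009 and 11212 in CRE (-0.09, SE 0.04, adjusted p = 0.128). *Plxnc1*, the plexin that binds SEMA7A, had 45, 58 and 67 reads against 44, 65 and 58 (-0.09, SE 0.20, adjusted p = 0.746), so its groups overlapped. *Plxna3* stood at -0.11 (adjusted p = 0.474). The ratio of *Sema7a* to *Plxnc1* in FPKM was 4.92 ± 1.83 in GFP and 26.1 ± 7.46 in CRE, set by the ligand. Of the neuropilins, *Nrp2* rose from 180.0 ± 15.2 to 212.8 ± 3.4 CPM (0.24, SE 0.06, adjusted p = 0.00674). *Nrp1*, also a co-receptor for VEGF, did not pass (-0.11, SE 0.06, adjusted p = 0.151), but did so without GFP replicate 1 (-0.17, adjusted p = 0.0185).

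In the netrin system, *Ntn4* (chr10:93640681-93747207, plus strand) stood out among ligands. Netrin-4 is a basement membrane protein that binds laminin chains. It had 846, 958 and 974 reads in GFP and 2041, 1611 and 1725 in CRE, 52.4 ± 1.71 and 96.7 ± 11.3 CPM, a log2 fold change of 0.88 (SE 0.08, adjusted p = 9.54e-06). No CRE library came near the GFP range. *Ntn1*, the classical attractant, had 782, 1047 and 1111 reads against 927, 837 and 942 and did not pass (-0.18, SE 0.07, adjusted p = 0.0626), but passed without GFP replicate 1 (-0.26, adjusted p = 0.00239). The FPKM ratio of *Ntn4* to *Ntn1* went from 1.49 ± 0.168 to 3.02 ± 0.281, and summed netrin FPKM from 23.2 ± 0.909 to 37.8 ± 3.30. *Ntn3*, a netrin of low level, stood at 0.00 (SE 0.31, adjusted p = 0.998).

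Netrin receptors were dominated by *Unc5b* and *Neo1*, while *Dcc*, the attractant receptor of axons, had no read in any library. *Neo1* had 3813, 4018 and 4485 reads in GFP and 3811, 3642 and 3926 in CRE (-0.18, SE 0.04, adjusted p = 0.00417). *Unc5b* had 8061, 8204 and 9148 against 8382, 7964 and 8029 (-0.13, SE 0.05, adjusted p = 0.0387). Both calls depended on the scaling, since with library size alone the values were -0.02 (adjusted p = 0.690) for *Neo1* and 0.03 (adjusted p = 0.561) for *Unc5b*, and on FPKM values 0.07 (adjusted p = 0.257) and 0.03 (adjusted p = 0.638). The *Unc5b* call was also lost with any library but GFP replicate 2 left out (adjusted p = 0.0545 to 0.144). *Unc5c* went from 172, 336 and 318 reads to 197, 155 and 161 (-0.74, SE 0.19, adjusted p = 0.00736), with GFP replicate 1 at 10.7 CPM next to the highest CRE library at 10.6 CPM, and did not pass on FPKM values (-0.32, adjusted p = 0.0560). *Unc5a* had 3, 3 and 6 reads in GFP and 21, 19 and 31 in CRE (2.46, SE 0.40, adjusted p = 0.000548). It entered the test only through its CRE level, so a call as higher was built into its being tested, and it remained far less abundant than *Unc5b*.

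Ephrins of the A type, held in the membrane by a lipid anchor, gave 1 higher and 2 lower of 5 tested. *Efna3* rose from 67, 61 and 72 reads in GFP to 183, 158 and 154 in CRE, or 3.78 ± 0.365 to 8.90 ± 0.861 CPM (1.24, SE 0.13, adjusted p = 3.98e-05). *Efna5* fell from 249, 298 and 308 reads to 183, 157 and 177 (-0.79, SE 0.09, adjusted p = 5.39e-05), and *Efna4* from 84, 92 and 130 to 57, 60 and 68 (-0.79, SE 0.16, adjusted p = 0.0024). The FPKM ratio of *Efna3* to *Efna5* thereby went from 0.334 ± 0.0273 to 1.35 ± 0.134. *Efna3* and *Efna4* share 14.1% and 10.5% of their exon bases with antisense genes, *Gm15998* and *4731419I09Rik*, and since strand use in counting is not stated, reads of the partners cannot be told apart. *Efna1* (-0.35) and *Efna2* (0.59) did not pass, *Efna1* with the exception of the fit without CRE replicate 3 (-0.58, adjusted p = 0.0381).

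EphA receptors moved apart. *Epha2* (chr4:141301240-141329384, plus strand), the EphA receptor with the highest level, had 694, 699 and 700 reads in GFP and 1577, 1641 and 1326 in CRE. The level rose from 39.6 ± 3.40 to 81.9 ± 10.7 CPM (1.05, SE 0.10, adjusted p = 1.28e-05), with CRE replicate 3 the lowest at 70.0 CPM and the highest GFP library at 43.2 CPM. *Epha7* (chr4:28813131-28967499, plus strand) fell from 207, 299 and 294 reads to 114, 103 and 116, to 39.9% of the GFP mean (-1.33, SE 0.12, adjusted p = 1.24e-05). The ratio of *Epha2* to *Epha7* in FPKM was 4.28 ± 0.869 in GFP and 19.3 ± 3.20 in CRE. *Epha4*, which binds ephrins of both types, passed at -0.37 (SE 0.13, adjusted p = 0.0416), but with GFP replicate 2, GFP replicate 3, CRE replicate 2 or CRE replicate 3 left out the adjusted p was 0.0685, 0.117, 0.145 and 0.146. The call was also lost with library size alone (-0.21, adjusted p = 0.207), with upper-quartile scaling (adjusted p = 0.0502) and with DESeq2 (adjusted p = 0.0509). *Epha1* and *Epha3* stood at 0.04 and -0.07 and did not pass.

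The 250 bases before the RefSeq starts of *Epha2* (GRCm38.p6, chr4:141300971-141301220, plus strand) and *Epha7* (chr4:28812881-28813130, plus strand) are shown because the receptors lie on one chromosome and changed in opposite directions. They held 9 and 25 CpG, in capitals.
Epha2: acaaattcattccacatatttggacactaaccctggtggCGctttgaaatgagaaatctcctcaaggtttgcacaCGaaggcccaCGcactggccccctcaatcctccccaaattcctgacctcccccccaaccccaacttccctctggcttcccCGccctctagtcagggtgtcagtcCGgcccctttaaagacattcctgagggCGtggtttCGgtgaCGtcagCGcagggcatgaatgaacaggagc
Epha7: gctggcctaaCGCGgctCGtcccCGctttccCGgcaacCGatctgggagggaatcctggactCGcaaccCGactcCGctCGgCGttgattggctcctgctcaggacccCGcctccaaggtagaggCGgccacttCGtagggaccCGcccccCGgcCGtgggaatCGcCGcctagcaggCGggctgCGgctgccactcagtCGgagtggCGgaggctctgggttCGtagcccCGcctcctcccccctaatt

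B-type ephrins span the membrane, and *Efnb2*, known from arteries, was the most abundant ephrin, rising from 72.8 ± 5.63 to 99.8 ± 2.90 CPM (0.46, SE 0.06, adjusted p = 0.000123). It had 1260, 1294 and 1291 reads in GFP and 1920, 1765 and 1868 in CRE. *Efnb1* did not pass (-0.03, adjusted p = 0.756). Among EphB receptors, *Ephb2* had 951, 1079 and 1172 reads in GFP and 610, 586 and 640 in CRE, a fall to 54.8% of the GFP mean (-0.87, SE 0.05, adjusted p = 7.03e-07). *Ephb6*, whose kinase domain is inactive, rose from 549, 505 and 574 reads to 1082, 1152 and 1150, to 198% of the GFP mean (0.98, SE 0.07, adjusted p = 3.2e-06). The ratio of the kinase-inactive *Ephb6* to *Ephb2* in FPKM thus went from 0.754 ± 0.107 to 2.99 ± 0.224, and each CRE library was above each GFP library. *Ephb4*, the venous receptor of ephrin-B2, had 1056, 1110 and 1145 reads against 1016, 1061 and 1165 and did not pass (-0.10, SE 0.06, adjusted p = 0.182). *Ephb3* stood at -0.08 (adjusted p = 0.472).

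Ligands were then set beside their receptors, in 115 ligand and receptor pairs known from textbooks. Both members were tested in 81 pairs, and both were called in 35. Ligand and receptor fell together in 16 pairs and rose together in 4, the ligand rose and the receptor fell in 9, and the reverse held in 6. Among the guidance genes called, 12 ligands were lower and 8 higher, and 12 receptors were lower and 5 higher. The pair counts carry this lean and do not by themselves show that partners moved together. Since a receptor stands in many pairs, pairs are not independent and no test was made over them. In the Slit system, *Slit2* and *Slit3* fell with *Robo2*, a receptor of lower level, while *Robo1* did not pass. *Sema6a* and *Sema6b* fell together with both of their main receptors, *Plxna2* and *Plxna4*. *Sema3c* rose with *Nrp2*, whereas its other receptor *Plxnd1* fell, and *Sema5a* and *Sema6c* rose with *Plxna1*. Other ligands of these risen receptors fell, *Sema3a* and *Sema6d* for *Plxna1*, and *Sema3b* and *Sema3f* for *Nrp2*. *Sema7a* rose while *Plxnc1* did not pass and the integrin gene *Itga1* fell by 0.48 (adjusted p = 0.00013). *Itgb1* stood at -0.15 (adjusted p = 0.00633), but at 0.02 (adjusted p = 0.733) with library size alone. Among ephrins, *Efna3* rose with *Epha2*, while its other receptors *Epha4* and *Epha7* fell, as did *Efna4* and *Efna5*, also paired with *Epha2*. Of 10 ephrin-A pairs with both members called, 1 rose together and 5 fell together. *Efnb2* rose while *Ephb2* and *Epha4* fell, and *Ephb6*, which rose, was not in the list of pairs. *Ntn4* rose while *Neo1* and *Unc5b* fell. Of the calls in the 35 pairs, those of *Robo2*, *Epha4*, *Neo1*, *Unc5b*, *Itgb1*, *Sema4a* and *Rgma* were lost with library size alone.

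**Figure D4:**
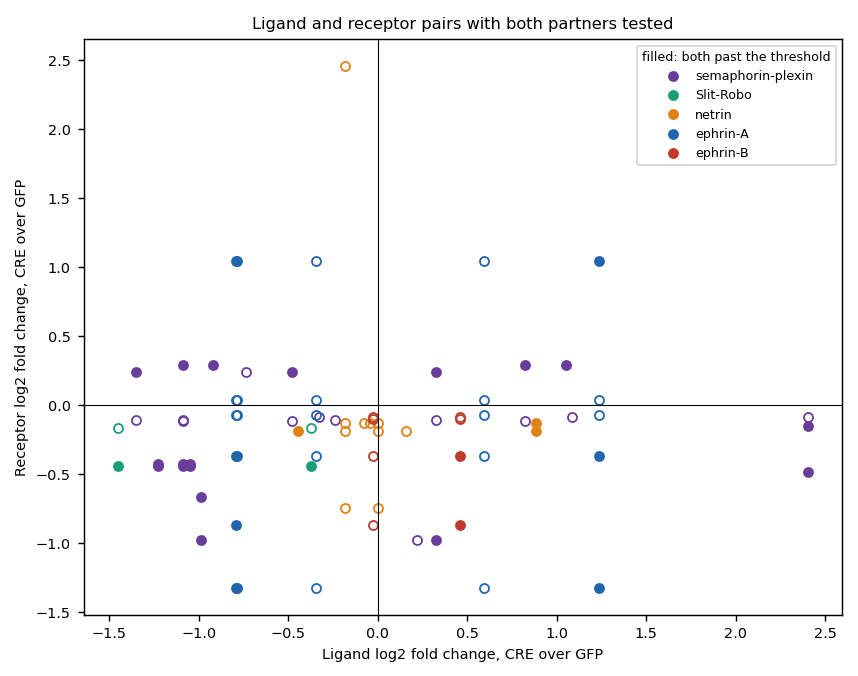
Log2 fold change of the ligand (horizontal) against that of the receptor (vertical), CRE over GFP, for the 81 pairs with both members tested, coloured by system, with filled points where both passed the threshold. Of the 35 filled points, 16 lie at lower left (both lower) and 4 at upper right (both higher), and points of one receptor form rows.

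Proteins that process or share these ligands were measured beside them, in a list of 17 genes of which 15 were tested. Of these 5 rose and 6 fell, 73.3% called against 51.2% of all tested genes. None of the called changes was over 1.5-fold, against 17.3% of all tested genes. *Furin*, the convertase that cleaves class 3 semaphorins, rose by 0.50 (adjusted p = 5.38e-05) and *Adam17*, a sheddase, by 0.44 (adjusted p = 5.17e-05), and *Adam10*, which cleaves ephrins, by 0.11 (adjusted p = 0.0426). *Gpc1*, a glypican that binds Slits, rose by 0.56 (adjusted p = 0.000162). *Rgma*, a ligand of neogenin, fell by 0.45 (adjusted p = 0.0114), the neuropilin ligands *Vegfa* and *Vegfc* by 0.23 and 0.57 (adjusted p = 0.0178 and 0.000101), and the protease gene *Mmp14* by 0.29 (adjusted p = 0.00137). With library size alone, *Rgma*, *Vegfa* and *Mmp14* did not pass (adjusted p = 0.0709, 0.418 and 0.0585). *Met*, a partner of B-type plexins, rose by 0.26 (adjusted p = 0.0434).

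Genes with too few reads made up the other 14 of the 70. *Dcc* and *Epha6* had no read in any library, which allows up to 0.156 to 0.186 CPM by counting error. *Epha5*, *Epha8*, *Epha10*, *Ntn5*, *Plxnb3* and *Sema5b* had at most 4 reads in any library. *Sema4d* (7 to 13 reads) and *Ephb1* (6 to 15 reads) overlapped between the groups. *Robo3* had 1, 0 and 1 reads in GFP and 9, 6 and 7 in CRE, *Unc5d* had 3, 0 and 6 against 5, 13 and 16, and *Efnb3* had 2, 6 and 8 against 14, 9 and 13. *Robo3* and *Slit1* passed when no filter was used (adjusted p = 0.00854 and 0.0322), at levels where a single read is a large share of the count.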

How the data were processed

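RNA-seq was performed on 6 libraries of TGF-β-treated cardiac fibroblasts with floxed *Tet3* alleles, grouped by sample title into GFP (n = 3) and CRE (n = 3). As described in the methods of the study, Trimmomatic was used for trimming, HISAT2 for alignment to GRCm38, HTSeq-count for the gene counts, Cufflinks for FPKM and DESeq for testing. Tool versions and the use of strand in counting are not given in the sources used here. The labels and the methods name different extraction and library kits. The counts deposited by the authors were raw and whole. FPKM values of each library, also deposited, stood beside them. The log2 fold change, p-value and false discovery rate columns, deposited by the authors from their own comparison, were not used.

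Counts were tested in R 4.3.3 with edgeR 4.0.16 (TMM, filterByExpr, quasi-likelihood, two-sided, Benjamini-Hochberg over the 12862 genes that passed the filter). CPM used TMM library sizes, with factors of 0.944 to 0.947 in GFP and 1.05 to 1.06 in CRE. Levels of guidance genes were compared with one another only as FPKM. Marker lists are given as summed CPM, which is not corrected for length and is read only between groups. Every count interval and floor of 3 counts covers counting error only. Replicates of a group differed by 4.04 to 12.1 times the chi-square expected per degree of freedom from sampling, so none was taken as a repeat deposit. Counts simulated from these means, with 200 changed genes, gave back 77.0% of 1.5-fold and 89.4% of 2-fold changes, and 5.31% of calls were unchanged genes. In the data 6583 genes (51.2%) were called, far more than were changed in the simulation, so these rates need not hold for the comparison itself.

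Alternatives were DESeq2 1.42.0, other scalings (library size alone, RLE, upper quartile), other filters, limma-voom, limma 3.58.1 on log2(FPKM + 1) and log2(FPKM + 0.1), the study's threshold on fold (above 1.5 or below 0.66), a replicate block, and leaving out each library. Coordinates and overlapping exons came from GENCODE M21, promoter windows from RefSeq (GRCm38.p6). Named genes were those called at over 1.5-fold, the most abundant ligand and receptor of each family, and the receptors paired with a ligand that changed at least 2-fold. Other tested genes are given in brief. Members, pairs and lists were chosen with earlier results of these data known.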

Additional observations from a re-analysis of the deposited data

How the results depend on the processing

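Of the 37 guidance genes called, 28 kept the call and direction in every one of the 16 alternative fits that gave them a value, among them the 13 called higher. The study's threshold is not one of these 16 fits, and at that threshold 9 guidance genes were higher. *Unc5a* had a value in only 15, since it was not tested with at least 10 counts in every library, where 12 guidance genes were higher. The exceptions were *Epha4*, *Neo1*, *Plxna2*, *Robo2*, *Sema3f*, *Sema4a*, *Sema4c*, *Unc5b* and *Unc5c*, and of the 24 over 1.5-fold the exceptions were *Sema4a* and *Unc5c*. Higher and lower guidance genes numbered 13 and 24, 15 and 19 with library size alone, 16 and 15 on both FPKM scales, and 9 and 15 at the study's threshold, with 13 to 14 and 20 to 25 without 1 library. DESeq2 gave 13 and 21, against 2748 and 3020 over all genes. It did not call *Epha4*, *Robo2* and *Sema4a* (adjusted p = 0.0509, 0.0583 and 0.0843). Over all genes, 3277 were higher and 3306 lower. The counts were 5529 and 2083 with library size alone, 4976 and 1916 on log2(FPKM + 1), 4989 and 1909 on log2(FPKM + 0.1), 967 and 1323 at the study's threshold, and 2735 to 3214 and 2874 to 3303 without 1 library. The other genes of the axon guidance pathway, 24 higher and 36 lower, gave 41 and 18 with library size alone, 38 and 19 on both FPKM scales, 5 and 10 at the study's threshold, and 21 to 24 and 27 to 34 without 1 library. *Tet3* kept its call in all alternatives, between -0.76 and -0.55, and between -0.78 and -0.62 without 1 library.

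Among the 56 tested guidance genes, signs changed for genes near 0. With library size alone, on log2(FPKM + 0.1) and on log2(FPKM + 1), in that order, values were 0.135, 0.132 and 0.116 for *Efnb1*, 0.081, 0.060 and 0.053 for *Ephb3*, 0.161, 0.132 and 0.046 for *Ntn3*, 0.094, 0.050 and 0.024 for *Epha3*, 0.061, 0.032 and 0.030 for *Ephb4*, 0.055, 0.057 and 0.055 for *Nrp1*, 0.050, 0.046 and 0.030 for *Plxna3*, 0.076, 0.075 and 0.074 for *Plxnb2*, 0.076, 0.057 and 0.024 for *Plxnc1*, 0.00093, 0.0039 and 0.0036 for *Robo1*, and 0.033, 0.027 and 0.027 for *Unc5b*. On those FPKM scales alone, *Neo1* turned to 0.068 and 0.067 and *Ntn1* to 0.022 and 0.020. Further values of *Ntn3* were 0.0053 with 10 counts in every library, 0.040 with limma-voom, 0.0098 with the block and 0.018 with upper-quartile scaling. Without 1 library, *Ephb3* ranged from -0.141 to 0.013, *Ntn3* from -0.258 to 0.269, *Epha1* ranged from -0.099 to 0.14 (-0.056 without GFP replicate 1), *Epha3* up to 0.033 and *Plxnc1* from -0.23 to 0.064. The cause of these shifts was not tested beyond the change of scaling itself. The replicate block gave 13 guidance genes higher and 26 lower, 3260 and 3373 over all genes, and made *Robo1* pass (-0.16, adjusted p = 0.0392). Deviations of same-numbered libraries correlated at 0.05, 0.18 and -0.02, and those of differently numbered libraries at -0.12 to 0.07. With so few libraries, whether the numbers pair the samples was not settled. Depth limits the 14 untested genes. Leaving out a single library changed the call of 10 tested guidance genes, at low and at high counts.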

Other observations

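The wider axon guidance pathway, as listed by KEGG, had 118 further genes in the table, of which 102 were tested. Of these 24 were higher and 36 lower in CRE, 58.8% called against 51.2% of all tested genes, with a median log2 fold change of -0.05, and 15 (14.7%, against 17.3% of all tested genes) were called at over 1.5-fold. The split turned with the scaling, to 41 higher and 18 lower when only library size was used and, with FPKM, 38 higher and 19 lower. The genes named here were chosen after their values were seen. Lower were the myosin light chain gene *Myl9* (-1.78), the chemokine *Cxcl12* (-1.36) with its receptor *Cxcr4* (-1.23), *Dpysl2* (-1.09), which codes for the semaphorin effector CRMP2, the channel gene *Trpc6* (-1.05), the ligand *Wnt5a* (-0.89) and the hedgehog co-receptor *Boc* (-0.75). Higher were another myosin light chain gene, *Myl12b* (1.01), the plexin-binding GTPase gene *Rnd1* (0.93), the Wnt receptor *Fzd3* (0.82), *Srgap1* (0.56), which codes for a GTPase-activating protein of Robo signalling, and *Limk1* (0.39), a kinase of cofilin. Of the shared effectors, *Rock1* and *Rock2* were higher by 0.22 and 0.35, and *Cdc42* was lower at -0.32. *Rac1* and *Rhoa* stood at -0.13 and -0.13 but at 0.03 and 0.04 with library size alone, where neither passed (adjusted p = 0.501 and 0.473).

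RefSeq windows from 250 bases before to 50 bases after the start were given for 60 of the 70 guidance genes, 76 windows in all. The median CpG number per gene was 30.5 in the 12 genes called higher, 24 in the 20 called lower, 15.5 in the 18 that did not pass and 16 in the 10 not tested, against 21 over all tested genes and 7 over all genes. These are descriptions, and methylation of these windows was not measured. The EGR motif, searched as GCGNGGGCG on both strands, was in 14 windows (18.4%), against 10.6% of windows of tested genes and 5.55% of all windows. *Slit2* and *Slit3* were both among those genes. The GC box GGGCGG, whose letters overlap in part with those of the EGR motif, was in 71.1% of guidance windows and 62.0% of windows of tested genes. The AP-1 letters TGANTCA were in 3.95% against 5.33%, and the TEAD letters GGAATG in 11.8% against 12.4%. A match marks letters in a window and not a bound site.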
